A study of Homo sapiens with 24 samples.

Results

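The mitosis and cytokinesis genes are 49 genes that carry cells through the M phase: the kinases, cyclins and phosphatases of mitotic entry, the spindle checkpoint, the anaphase machinery, the chromosomal passenger complex, the kinetochore, the spindle with its motors, and the apparatus that cuts the daughter cells apart. They were chosen by gene symbol from a list of names; no measured value enters the rule, but the list was drawn up with earlier results of these data known. All 49 were found among the 58266 symbols of the gene tables, each on 1 entry, and all 49 passed the filter on low values that left 15828 genes for testing. The study put HEK293A cells, an adherent line from human embryonic kidney, on fibronectin-coated hydrogels of 1 kPa (soft) or 40 kPa (stiff) and measured poly(A) RNA by stranded sequencing. Wild type (WT) cells were compared with cells lacking RAP2A, RAP2B and RAP2C (RAP2 tKO), LATS1 and LATS2 (LATS dKO), or YAP and TAZ (YAP/TAZ dKO). Each of the 4 genotypes was grown at both stiffnesses, with 3 libraries in each of the 8 groups and 24 libraries in all, called biological replicates in the series text. The sources at hand do not say how each knockout was made or from how many clones, so a difference between a knockout line and WT is a difference between those lines.

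The RAP2 proteins are small GTPases that act upstream of the Hippo pathway, whose kinases, LATS1 and LATS2, hold back YAP and TAZ, a pair of transcriptional coactivators. M-phase genes are transcribed in a wave late in the cell cycle, and their promoters are known for a pair of short elements: the cell cycle homology region (CHR, TTTGAA), bound by MuvB complexes with B-MYB and FOXM1, and CCAAT boxes, bound by NF-Y. In a bulk sample of cycling cells the level of such an RNA follows both the share of cells near mitosis and the RNA in each of them. Fewer cells in M phase and less RNA per cell cannot be told apart in these data.

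RefSeq promoter windows (build GRCh38.p14, from 250 bases before to 50 after a gene's start, so 300 bases each) were at hand for 40 of the 49 genes and show what the members share in sequence. TTTGAA was read on both strands and counted also where it overlaps another motif. It stood in a window of 30 of these 40 genes (75%), against 18.2% of all 27305 genes with a window. CCAAT, also read on both strands, stood in 33 (82.5%), against 39.7%, and both stood in 26 (65%), against 7.26%. Genes with several starts had several windows, and any of them counted. Over the 9837 tested genes with a window the shares were 13.5% for TTTGAA, 43.9% for CCAAT and 5.71% for both. The upstream 110 bases, 5′ to 3′ on the gene's strand, are shown for genes that represent the patterns of expression described further on. CDC25B, CCNB1, CDC20 and KIF18A were lower without YAP and TAZ, and PRC1 and KIF4A were higher. CDCA8 was called higher on 40 kPa in WT and RAP2 tKO only, and PLK1 was called in no comparison when all 24 libraries were kept. Capitals mark TTTGAA and CCAAT on either strand, so that CCAAT on the other strand reads ATTGG, and in CDCA8 the last motifs overlap.
CDC25B: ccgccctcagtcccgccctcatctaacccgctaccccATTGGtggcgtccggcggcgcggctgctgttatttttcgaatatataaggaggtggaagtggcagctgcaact
CCNB1: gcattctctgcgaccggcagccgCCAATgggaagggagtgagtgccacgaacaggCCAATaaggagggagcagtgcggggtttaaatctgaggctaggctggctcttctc
CDC20: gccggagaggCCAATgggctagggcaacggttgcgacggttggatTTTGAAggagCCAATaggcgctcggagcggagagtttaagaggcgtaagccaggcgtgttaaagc
KIF18A: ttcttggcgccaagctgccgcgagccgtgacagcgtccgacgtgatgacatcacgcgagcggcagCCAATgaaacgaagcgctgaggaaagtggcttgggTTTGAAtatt
PRC1: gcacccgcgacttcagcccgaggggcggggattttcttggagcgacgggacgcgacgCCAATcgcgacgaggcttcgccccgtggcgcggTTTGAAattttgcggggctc
KIF4A: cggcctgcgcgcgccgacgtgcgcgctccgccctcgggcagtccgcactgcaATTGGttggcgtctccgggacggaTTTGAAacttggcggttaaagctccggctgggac
CDCA8: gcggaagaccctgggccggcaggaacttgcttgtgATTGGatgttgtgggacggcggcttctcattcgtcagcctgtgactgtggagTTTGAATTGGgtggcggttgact
PLK1: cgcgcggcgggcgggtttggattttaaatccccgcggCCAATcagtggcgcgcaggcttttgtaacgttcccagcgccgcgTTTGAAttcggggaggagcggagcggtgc

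In GRCh38.p14 these stretches are chr20:3796200-3796309 (CDC25B, plus strand, the third of its 4 windows), chr5:69167040-69167149 (CCNB1, plus), chr1:43358871-43358980 (CDC20, plus) and chr11:28108157-28108266 (KIF18A, minus). The others are chr15:90994536-90994645 (PRC1, minus), chrX:70289994-70290103 (KIF4A, plus), chr1:37692406-37692515 (CDCA8, plus) and chr16:23678779-23678888 (PLK1, plus). CDC25B and CCNB1, the members that fell most without YAP and TAZ, had no TTTGAA in any of their windows and did have CCAAT. A match to these letters is a description of the sequence, not of binding.

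Expression is given as FPKM, a fragment count scaled for transcript length and library depth, as the authors deposited it, and a value with ± is a mean with its SD. A difference is one of log2(FPKM + 1) with its standard error (SE), and a gene is called where limma's test, adjusted over all 15828 genes by the Benjamini-Hochberg method, gives an adjusted p below 0.05. The 49 genes were well expressed: their means over the 24 libraries ran from 10.3 FPKM for KIF18A to 371 FPKM for PRC1. The precision of these values rests on an estimated 18.1 to 39.4 M fragments per library, with the lowest in LATS dKO on 40 kPa replicate 1. Of markers noted for the line, VIM, KRT8, KRT18 and NEFL were at 10.7 FPKM or more in every library but ranged widely (KRT8 from 28.0 to 536, NEFL from 10.7 to 554), LHX1 lay between 0.251 and 7.02 FPKM, NEFM did not pass 0.0939 FPKM and PAX2 did not pass 1.30 FPKM. Of markers of other cell types, PTPRC, CD3E, CDH5 and DCN stayed at or below 0.0641 FPKM and PDGFRB at or below 0.184, while COL1A1 lay between 3.31 and 7.87 and CD14 between 0.133 and 0.883. The summed FPKM of these other-type markers was between 3.70 and 8.17 in every library. Of the targeted genes, YAP1 and WWTR1 (TAZ) were at most 6.78 and 11.5 FPKM in YAP/TAZ dKO, below every WT library (at least 30.0 and 23.8). LATS1 was at most 6.001 FPKM in LATS dKO against at least 11.8 in WT, and RAP2A at most 7.35 in RAP2 tKO against at least 7.78. LATS2, RAP2B and RAP2C RNA was not below WT in the line that lacks the gene (LATS2 at a median of 3.31 against 2.36 FPKM, RAP2B 5.55 against 4.51, RAP2C 21.0 against 18.8), and RNA level does not show whether a protein is made.

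The plot of all members by library shows YAP/TAZ dKO as the genotype that departed most from WT. Summed over the 49 genes, YAP/TAZ dKO cells held 4120 ± 58.1 FPKM on 1 kPa and 4129 ± 37.5 on 40 kPa (SD, n = 3 each), and WT cells 4569 ± 91.1 and 4715 ± 93.7. The sums of the 6 YAP/TAZ dKO libraries lay below those of all 18 other libraries.

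**Figure D1:**
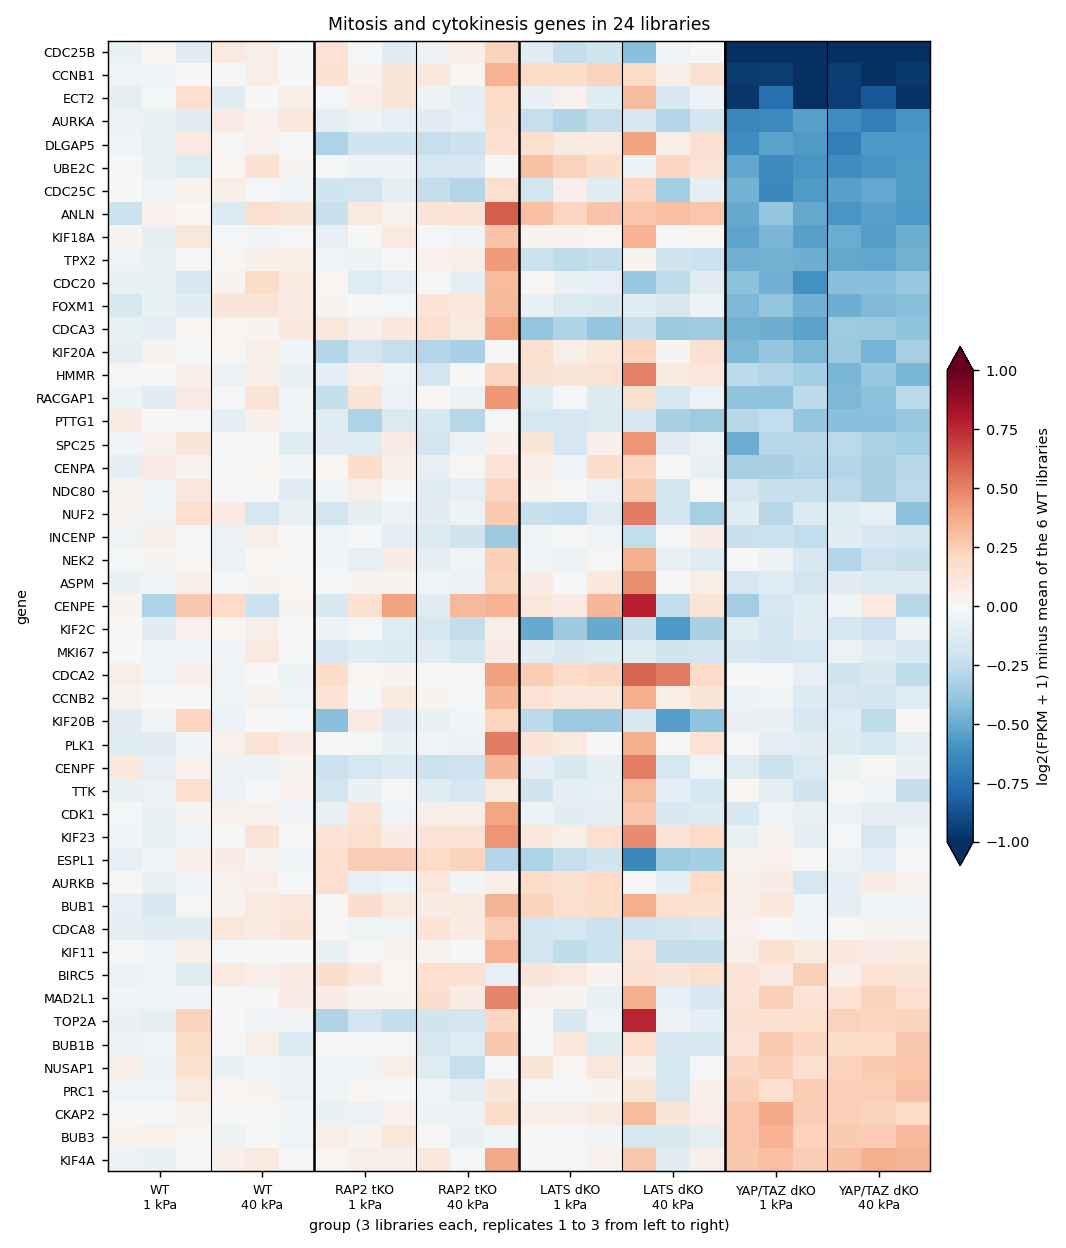
Each row is a gene and each column a library, in 8 groups of 3, and colour gives log2(FPKM + 1) minus the mean of the 6 WT libraries, with rows ordered by the difference between YAP/TAZ dKO and WT. CDC25B, CCNB1 and ECT2 are darkest blue in all 6 YAP/TAZ dKO libraries, BUB3 and KIF4A are red there, and replicate 3 of RAP2 tKO at 40 kPa and replicate 1 of LATS dKO at 40 kPa are redder than their own replicates over most rows.

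Among the libraries, 2 stood apart from their groups, and the members moved with them. In replicate 3 of RAP2 tKO at 40 kPa and replicate 1 of LATS dKO at 40 kPa, a gene's deviation from its group mean followed its GC content, with rank correlations across genes of -0.64 and -0.62, given as a description since genes share their library. For the 18 libraries outside these groups the same measure lay between -0.35 and 0.28. The median member stood 0.19 above its group mean on the log2 scale in the RAP2 tKO library and 0.16 above in the LATS dKO library, and between -0.027 and 0.031 in the 18 others. The RAP2 tKO library had the highest value of its group for 44 of 49 members, against 49.9% of all tested genes, and the LATS dKO library for 38 of 49, against 41.3%. TOP2A, the topoisomerase that untangles chromosomes, was 229 FPKM in the LATS dKO library and 130 and 126 FPKM in its 2 replicates. The members' own GC content ran from 34.5% to 57.8%, with a median of 45.3%. Counts of members in each comparison are therefore given with and without both libraries, since every comparison shares their spread. The fit without them leaves 2 libraries in RAP2 tKO on 40 kPa and 2 in LATS dKO on 40 kPa.

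**Figure D2:**
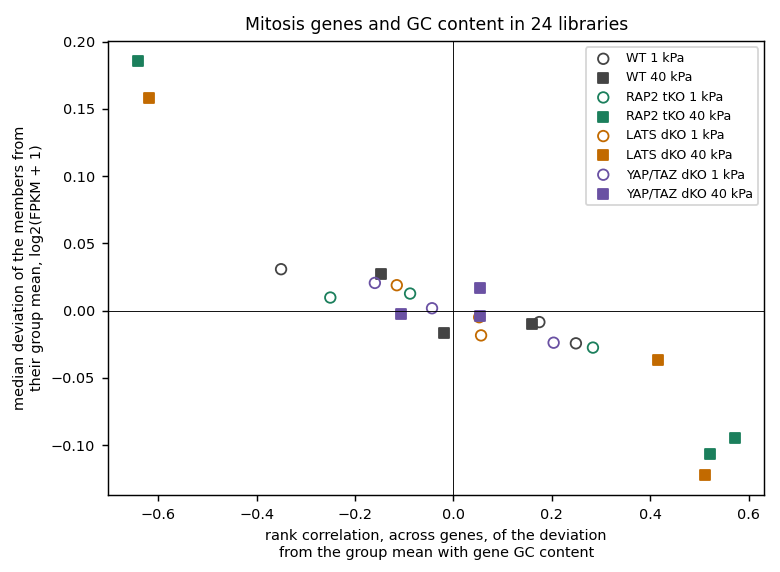
Each point is 1 of the 24 libraries. The horizontal axis is the rank correlation, across genes, of the library's deviation from its group mean with gene GC content, and the vertical axis is the median deviation of the 49 members in log2(FPKM + 1); the 2 libraries at -0.64 and -0.62 sit at 0.19 and 0.16, apart from the other 22.

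Without YAP and TAZ, 22 of the 49 genes fell, 7 rose and 20 were not called, against 27.0% of all tested genes lower and 23.6% higher (50.6% called). The median member differed by -0.14 and the median tested gene by 0.00. All 22 falls were without overlap between the 6 YAP/TAZ dKO and 6 WT libraries, the same libraries on which they were called. The share of all tested genes without overlap was not computed. Of the members, 10 fell by 0.49 or more on the log2 scale, and the largest rise was 0.30. The summed level of the other-type markers was 6.42 to 7.56 FPKM in YAP/TAZ dKO and 4.95 to 6.16 in WT, and all 6 tested markers of the line were called (3 higher and 3 lower, from -2.50 to 4.85). The part of either in the members' differences was not tested. With both libraries of deviating GC content left out, 31 members fell and 10 rose, against 31.4% and 30.1% of all genes, and all 29 calls were among them.

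Of the 9 genes of mitotic entry, 5 fell, none rose and 4 were not called. All 9 were called lower without both GC-deviating libraries, with CDK1, PLK1, CCNB2 and NEK2 added. CDC25B, a phosphatase that activates CDK1 (hg19 chr20:3767419-3786768), was between 63.7 and 73.9 FPKM in the 6 WT libraries, with a median of 69.4. In the 6 YAP/TAZ dKO libraries it was between 22.6 and 33.1 FPKM, with a median of 27.1. The groups did not overlap, and the YAP/TAZ dKO mean was 39.4% of the WT mean. The difference was -1.32 (SE 0.070, adjusted p = 2.1e-11, limma), and the levels of RAP2 tKO and LATS dKO libraries, 51.3 to 80.9 FPKM, lay above all YAP/TAZ dKO libraries.

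CCNB1, cyclin B1, the partner that makes CDK1 a mitotic kinase (hg19 chr5:68462837-68474072), ran from 298 to 319 FPKM in WT with a median of 305. It ran from 146 to 158 FPKM in YAP/TAZ dKO with a median of 157. The level without YAP and TAZ was thus 50.4% of the WT mean, with no overlap (difference -0.98, SE 0.044, adjusted p = 1.5e-12). Its paralogue CCNB2 was not called with all libraries (difference -0.12, SE 0.055, adjusted p = 0.083), with 53.3 ± 1.31 FPKM in WT and 49.04 ± 2.15 in YAP/TAZ dKO (SD, n = 6 each).

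AURKA, the Aurora kinase of centrosomes and spindle poles, was between 70.7 and 82.6 FPKM in WT and between 47.0 and 52.3 in YAP/TAZ dKO, with medians of 76.2 and 49.04. Its difference was -0.62 (SE 0.042, adjusted p = 5.4e-10). FOXM1, a transcription factor of the M-phase wave, was between 91.9 and 112 FPKM in WT and between 73.0 and 77.8 in YAP/TAZ dKO, and fell by 0.45 on the log2 scale (adjusted p = 4.5e-09). In neither gene did the groups overlap. CDC25C, a second CDK1-activating phosphatase, went from 19.3 ± 0.61 to 12.8 ± 0.55 FPKM (difference -0.55).

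CDK1 itself, the kinase at the centre of mitotic entry, was not called. Its levels of 114 to 123 FPKM in WT and 108 to 117 FPKM in YAP/TAZ dKO overlapped, and the difference of -0.083 had a 95% interval from -0.22 to 0.058. PLK1, the polo-like kinase of entry, spindle and exit, was also not called, with 137 to 163 FPKM in WT, 132 to 146 in YAP/TAZ dKO and an interval from -0.27 to 0.057. NEK2, a centrosome kinase, was not called either (difference -0.16, adjusted p = 0.064). Without both GC-deviating libraries in the shared spread, CDK1 and PLK1 were called lower at the same differences (adjusted p = 0.028 and 0.0059).

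**Figure D3:**
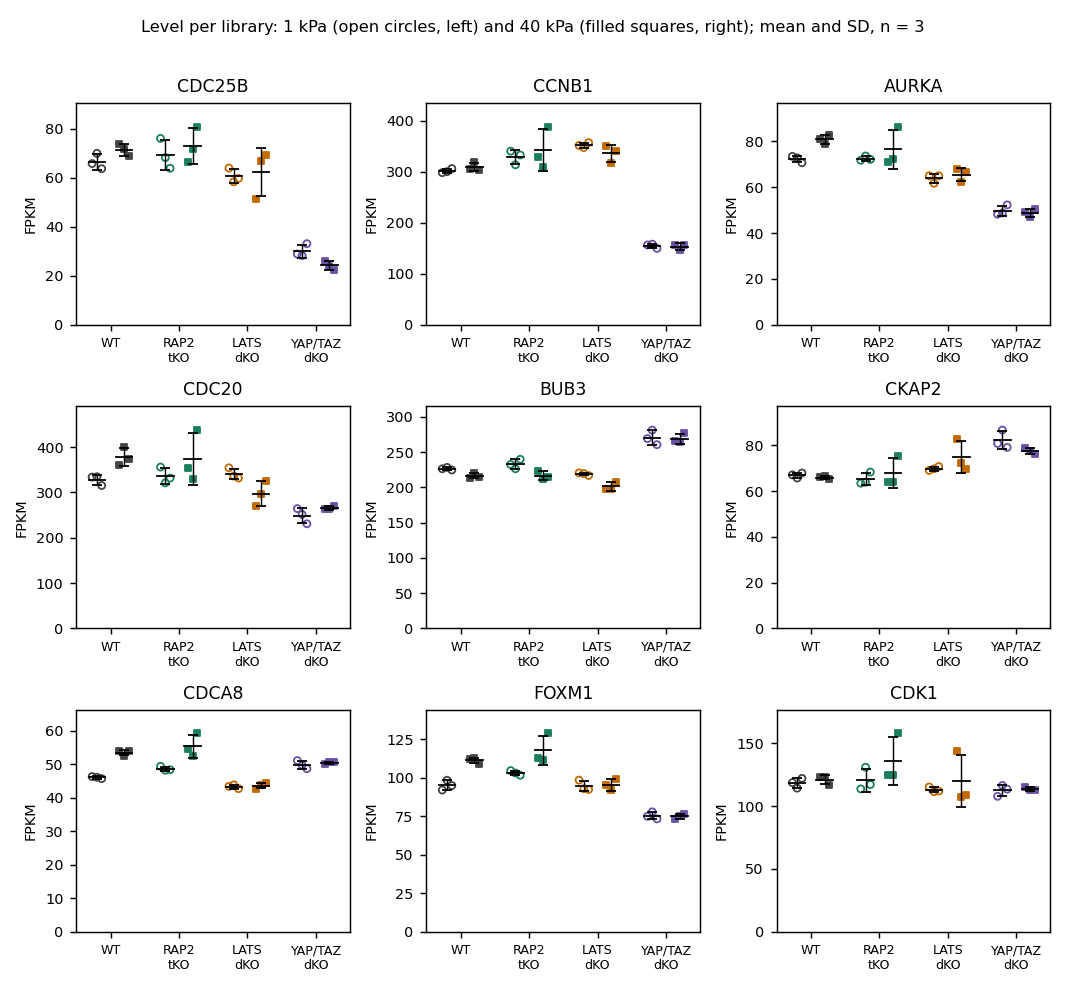
FPKM of 9 genes in the 24 libraries by genotype, open circles for 1 kPa and filled squares for 40 kPa, with the mean and SD of each group of 3; every axis starts at 0. CDC25B, CCNB1, AURKA, CDC20 and FOXM1 are lowest in YAP/TAZ dKO, BUB3 and CKAP2 highest, CDCA8 and FOXM1 are higher on 40 kPa in WT and RAP2 tKO, and CDK1 overlaps between genotypes.

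Of the 4 genes of anaphase onset, 3 fell. CDC20, which activates the anaphase-promoting complex (APC/C), was between 315 and 401 FPKM in WT and between 231 and 271 FPKM in YAP/TAZ dKO (difference -0.45, SE 0.060, adjusted p = 4.3e-06). UBE2C, a ubiquitin-conjugating enzyme that works with that complex, went from 113 to 137 FPKM down to 79.1 to 86.1 FPKM (difference -0.59, adjusted p = 3.4e-09). PTTG1, securin, the inhibitor of separase, had a mean of 229 ± 9.88 FPKM in WT and 179 ± 9.52 in YAP/TAZ dKO (difference -0.36). The groups did not overlap in any of these 3. ESPL1, separase itself, the protease that opens cohesin, was not called (difference -0.017, 95% interval -0.17 to 0.13).

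Of the 5 spindle checkpoint genes 2 rose, none fell and 3 were not called. In the fit without both GC-deviating libraries 3 rose, with MAD2L1 added. BUB3, a checkpoint protein that docks its partners at kinetochores, was between 214 and 228 FPKM in WT and between 261 and 281 in YAP/TAZ dKO, without overlap (difference 0.28, SE 0.026, adjusted p = 3.3e-08). BUB1B, the checkpoint protein BUBR1, rose by 0.21 (adjusted p = 0.024), with overlapping groups. BUB1, a checkpoint kinase, had a difference of -0.0034 with a 95% interval from -0.11 to 0.10 and levels of 37.2 to 45.1 FPKM in WT and 38.9 to 44.7 in YAP/TAZ dKO. TTK, the kinase MPS1 (difference -0.089), and MAD2L1, the inhibitor of CDC20 known as MAD2 (difference 0.17, adjusted p = 0.056), were not called.

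In the chromosomal passenger complex, which corrects faulty attachments and guides cytokinesis, INCENP fell (difference -0.19, adjusted p = 0.0024), BIRC5, survivin, rose (0.13, adjusted p = 0.015), and AURKB and CDCA8 were not called. AURKB, the kinase of the complex, was 188 ± 6.26 FPKM in WT and 188 ± 13.4 in YAP/TAZ dKO (SD, n = 6), with a 95% interval of the difference from -0.12 to 0.11. Of the 6 centromere and kinetochore genes, 3 fell and none rose, and without both GC-deviating libraries 5 fell, with NUF2 and CENPF added. CENPA, the histone that marks the centromere, was between 29.8 and 33.9 FPKM in WT and between 25.2 and 26.3 FPKM in YAP/TAZ dKO (difference -0.31, adjusted p = 6.1e-05). SPC25 (-0.33) and NDC80 (-0.24), subunits of the NDC80 complex that holds microtubules, also fell, while their partner NUF2 was not called (-0.19, adjusted p = 0.16). CENPE, a kinetochore motor, and CENPF were not called (-0.14 and -0.098).

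The 10 spindle genes were divided, with 4 lower, 3 higher and 3 not called. With both GC-deviating libraries left out, 6 were lower (KIF2C and ASPM added) and 4 higher (KIF11 added). DLGAP5, which stabilises kinetochore fibres, went from a median of 43.7 FPKM in WT to 29.1 FPKM in YAP/TAZ dKO (difference -0.60, adjusted p = 3.1e-07). KIF18A, a kinesin that limits microtubule length at the plate (-0.51), TPX2, the activator of Aurora A (-0.49), and HMMR, a spindle protein (-0.37), fell as well. KIF4A, a chromosome-bound kinesin, rose from 20.3 to 22.8 FPKM in WT to 25.4 to 27.6 FPKM in YAP/TAZ dKO (difference 0.30, SE 0.059, adjusted p = 0.00028). CKAP2, a microtubule-binding protein, rose from 65.2 to 68.0 FPKM to 76.4 to 86.7 FPKM (0.26), and NUSAP1, a spindle-bundling protein, rose by 0.23. KIF11, the motor that separates the poles, KIF2C, a microtubule depolymerase, and ASPM, a pole protein, were not called (0.098, -0.14 and -0.15).

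Of the 7 genes of the spindle midzone and cytokinesis, 4 fell, 1 rose and 2 were not called. ECT2, the exchange factor that turns on RHOA for the contractile ring (hg19 chr3:172468472-172539264), was between 44.1 and 53.4 FPKM in WT and between 22.01 and 27.9 FPKM in YAP/TAZ dKO, 51.6% of the WT mean (difference -0.93, SE 0.078, adjusted p = 1.2e-08). ANLN, the ring scaffold anillin, fell by 0.52 on the log2 scale, KIF20A, a midzone kinesin, by 0.41 and RACGAP1, which recruits ECT2 to the midzone, by 0.37. PRC1, which bundles midzone microtubules, rose from 340 to 380 FPKM in WT to 400 to 436 FPKM in YAP/TAZ dKO (difference 0.24, adjusted p = 0.00022). KIF20B and KIF23, 2 further midzone kinesins, were not called (-0.11 and -0.063). KIF23 is the partner of RACGAP1 in centralspindlin, and only the latter of the pair was called.

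Among the remaining 4 genes, CDCA3, a mitotic entry factor, fell by 0.44 on the log2 scale and MKI67, the coat protein of mitotic chromosomes known as Ki-67, by 0.14 (adjusted p = 0.0037). MKI67 had a mean of 97.2 ± 3.21 FPKM in WT and 88.1 ± 2.93 in YAP/TAZ dKO, without overlap. TOP2A (difference 0.19, 95% interval -0.046 to 0.42) and CDCA2, a chromatin-bound phosphatase regulator (-0.12), were not called. TOP2A was called higher and CDCA2 lower without both GC-deviating libraries. The counts of the anaphase, passenger and midzone genes did not change in that fit. Of the 40 members with a promoter window, TTTGAA stood in 13 of 17 that fell, 4 of 5 that rose and 13 of 18 that were not called.

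The position of a gene on its chromosome moved with these calls. In YAP/TAZ dKO the median of all tested genes was below -0.1 on 8 of the 19 chromosomes that hold members (chromosomes 3, 5, 7, 11, 12, 13, 14 and 20). On these 8, 17 of 19 members fell and 1 rose, where 48.4% of the 5363 tested genes fell. On the other 11 chromosomes, 5 of 30 members fell (CDC20, CENPA, NDC80, SPC25 and MKI67) and 6 rose, where 13.1% of 8147 genes fell and 33.6% rose. CCNB1 illustrates the overlap of both scales: it differed by -0.98, and the median of the 53 tested genes within 5 Mb on either side by -0.59. ECT2 differed by -0.93 and its 23 neighbours by -0.56. CDC25B differed by -1.32, while its 71 neighbours had a median of -0.13, and CDC20 differed by -0.45 while its 132 neighbours had a median of 0.11.

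**Figure D4:**
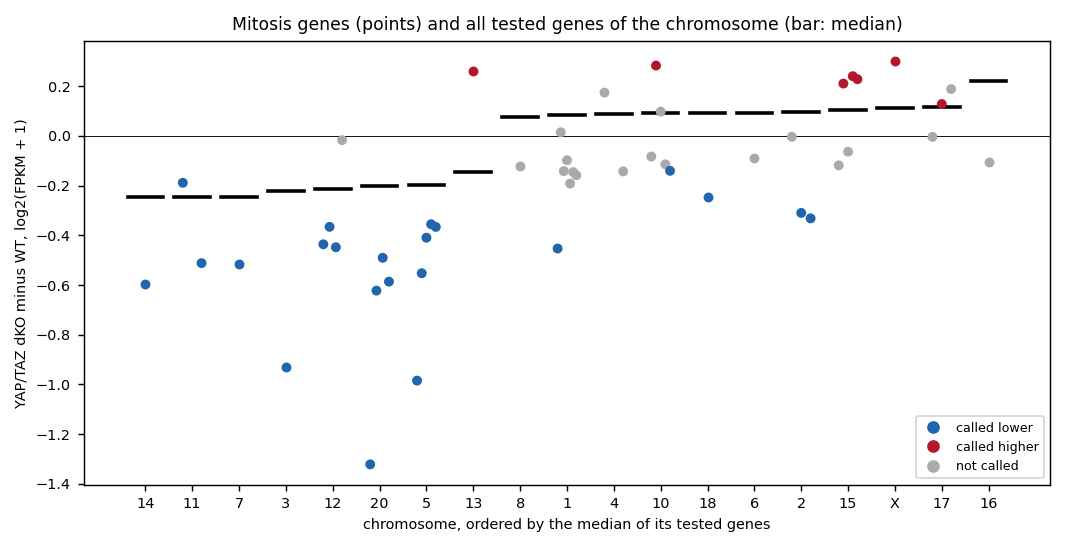
Points are the 49 members, placed by chromosome and by their difference between YAP/TAZ dKO and WT in log2(FPKM + 1); bars are the median of all tested genes of that chromosome, by which the chromosomes are ordered. Points of the 8 chromosomes with a bar below -0.1 are mostly blue (17 of 19 called lower), and those of the other 11 are mostly grey or red.

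Measured against the median of the genes within 5 Mb, 38 of 49 members were lower and 11 higher, and the median member differed from it by -0.18. The same count was not made for all tested genes. When each gene was centred on its neighbours in every library, an alternative added after the data were seen, 31 members fell and 4 rose, against 21.6% and 20.7% of all genes. Of the 22 falls 19 were kept and 12 were added, among them TTK (-0.31), NEK2 (-0.28), PLK1 (-0.26), AURKB (-0.17) and CDK1 (-0.13). The 4 rises kept were CKAP2, KIF4A, BUB3 and NUSAP1. CDC25B (-1.17), CDC20 (-0.55), CENPA (-0.43) and CCNB1 (-0.41) then differed most. The part of chromosomal position in the uncentred calls was not tested beyond these values.

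**Figure D5:**
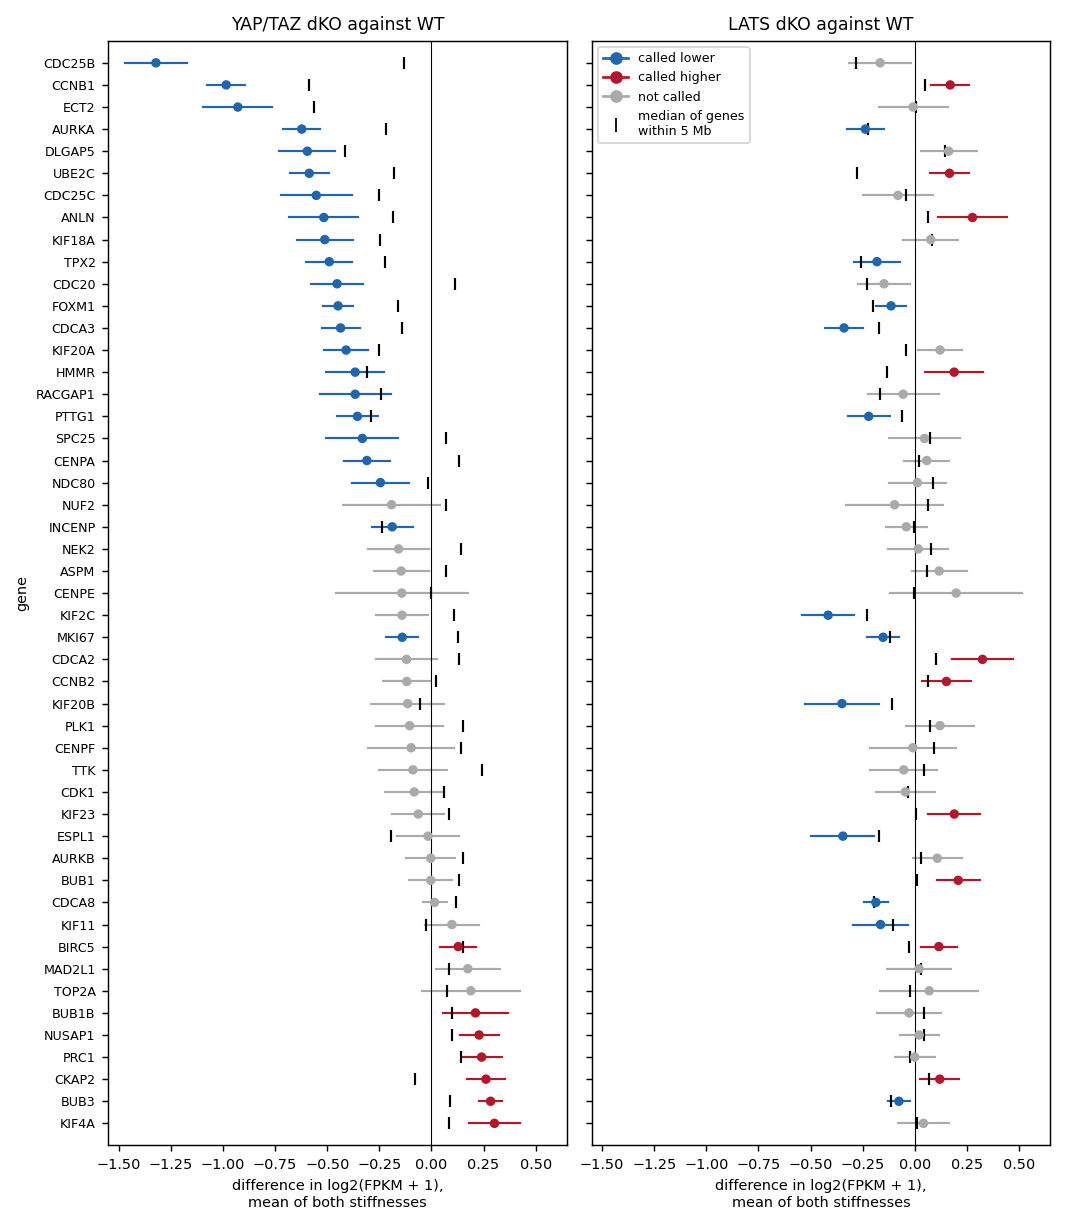
Difference from WT in log2(FPKM + 1) for each member in YAP/TAZ dKO (left) and LATS dKO (right), with its 95% interval, coloured by call; black ticks are the median of the genes within 5 Mb. In YAP/TAZ dKO 38 of 49 points lie left of their ticks, and in LATS dKO the 12 lower members all have ticks below 0.

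Without LATS1 and LATS2, 10 members rose, 12 fell and 27 were not called, against 16.0% of all tested genes higher and 17.8% lower (33.9% called). The median member differed by 0.01, and by -0.059 without both GC-deviating libraries. By role, 2 of 9 entry genes rose and 2 fell, 1 of 5 checkpoint genes rose and 1 fell, and 1 of 4 anaphase genes rose and 2 fell. Of the 10 spindle genes 2 rose and 3 fell, of the 7 midzone and cytokinesis genes 2 rose and 1 fell, and none of the 6 centromere and kinetochore genes was called. The passenger complex gave 1 rise and 1 fall, and the remaining 4 genes 1 rise and 2 falls. All knockout lines were compared with the same WT libraries, so values of a gene in different lines are set side by side only as measurements.

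The rises were led by CDCA2 (0.32, adjusted p = 0.0012), which was between 22.7 and 24.8 FPKM in WT and between 27.0 and 35.8 in LATS dKO. Its highest value was that of the GC-deviating library, and CDCA2 stayed called higher without both such libraries. On its chromosome, 8, 34.3% of tested genes rose, with a median of 0.12. The CDCA2 call did not hold in every alternative. ANLN rose by 0.28: its LATS dKO libraries lay between 122 and 130 FPKM, all above the WT range of 90.5 to 118. BUB1 rose by 0.21 (46.2 to 53.6 against 37.2 to 45.1 FPKM), also without overlap. KIF23 (0.19), HMMR (0.19) and CCNB1 (0.17) complete the 6 largest rises, and UBE2C, CCNB2, CKAP2 and BIRC5 rose by 0.17 or less. Side by side with YAP/TAZ dKO, the values were 0.28 and -0.52 for ANLN, 0.17 and -0.98 for CCNB1, 0.17 and -0.59 for UBE2C, and 0.12 and 0.26 for CKAP2.

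The largest fall was that of KIF2C (-0.42, SE 0.059, adjusted p = 1.9e-05), with 49.4 to 55.7 FPKM in WT and 35.7 to 45.4 in LATS dKO. KIF20B (-0.35), ESPL1 (-0.35), CDCA3 (-0.34), AURKA (-0.24) and PTTG1 (-0.22) followed, each without overlap between the 6 and 6 libraries. CDCA8, borealin, of the passenger complex, TPX2, KIF11, MKI67 (-0.15), FOXM1 (-0.11) and BUB3 fell by 0.19 or less. In LATS dKO and YAP/TAZ dKO the values were -0.24 and -0.62 for AURKA, -0.34 and -0.44 for CDCA3, and -0.42 and -0.14 (not called) for KIF2C. CDK1 (-0.046), CDC20 (-0.15, adjusted p = 0.066), PLK1 (0.12), AURKB (0.11) and TOP2A (0.069) were not called.

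Here too the calls moved with position. All 12 lower members had neighbours with a median below 0. On chromosomes 10 and 20, the 2 member chromosomes with a median below -0.1, 6 of 9 members fell, where 42.6% of 1051 genes fell, and on the other 17 chromosomes 6 of 40 members fell, where 14.4% did. Centred on neighbours, 12 members were called, 8 higher and 4 lower (13.3% and 12.6% of all genes), of which 11 were calls of the uncentred fit. The falls kept were 4 of 12, and the rises kept were 7 of 10. UBE2C, on chromosome 20 among neighbours with a median of -0.28, rose by 0.17 without centring. With both GC-deviating libraries left out, 12 members rose and 17 fell, against 20.6% and 22.2% of all genes. All 22 calls were among those members, and CDK1 and CDC20 were then called lower. The falls were then 4 of 9 entry genes, 3 of 4 anaphase genes and 2 of 6 kinetochore genes, and the rises 3 of 10 spindle genes and 3 of 7 midzone genes, with no change in the other roles or directions.

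Without RAP2A, RAP2B and RAP2C, 2 of the 49 members rose, 3 fell and 44 were not called, against 16.0% of all tested genes called (7.40% higher and 8.57% lower). KIF23 rose by 0.18 (adjusted p = 0.046), with 65.7 to 85.1 FPKM against 59.6 to 68.3 in WT, and CDCA3 by 0.15 (adjusted p = 0.021). KIF20A fell by 0.22 (adjusted p = 0.0043), with 71.4 to 89.5 against 84.4 to 93.5 FPKM, PTTG1 by 0.18 and INCENP by 0.14. The groups overlapped in all 5. CCNB1 (0.13, adjusted p = 0.0504), BUB1 (0.13), FOXM1 (0.097, adjusted p = 0.072), MKI67 (-0.11, adjusted p = 0.053), CDK1 (0.090), PLK1 (0.057), AURKB (0.029), CDC20 (0.0034), AURKA (-0.039) and TOP2A (-0.15) were not called. Without both GC-deviating libraries 17 members were called, 6 higher and 11 lower, against 14.5% and 13.3% of all genes. All 5 calls were among those members. Without replicate 1 or replicate 3 of RAP2 tKO at 40 kPa 8 were called, and 2 to 3 without any 1 replicate of WT at 1 kPa, replicate 1 or 3 of WT at 40 kPa, or replicate 1 or 3 of RAP2 tKO at 1 kPa. Centred on neighbours, 1 member rose and 3 fell, against 6.01% and 6.48% of all genes, and 1 call was kept.

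Between stiffnesses within a genotype, few genes were called, among the members and among all tested genes. In WT, 2 of 49 members were higher on 40 kPa and none was lower, against 0.322% and 0.663% of all tested genes (0.986% called), and 7 members had an unadjusted p below 0.05. The first was CDCA8, with 46.3, 46.1 and 45.7 FPKM in the 3 libraries on 1 kPa and 53.8, 52.5 and 53.9 FPKM on 40 kPa. The second was FOXM1, with 91.9, 98.3 and 94.8 FPKM on 1 kPa and 112.0, 112.5 and 109 FPKM on 40 kPa. In both, the 3 stiff libraries stood above the 3 soft ones. The differences were 0.21 for CDCA8 (SE 0.039, adjusted p = 0.011) and 0.23 for FOXM1 (SE 0.050, adjusted p = 0.034).

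These 2 calls are near the threshold. Leaving out any 1 of the 6 WT libraries gave 0 to 1 calls: 0 without replicate 3 on 1 kPa or without replicate 1 or 3 on 40 kPa, and 1 in the other 3 cases. With both GC-deviating libraries left out, which are in neither WT group but enter the shared spread, 8 members were higher and none lower (2.34% and 4.08% of all genes): CDCA8, FOXM1, AURKA (0.16), TPX2 (0.090), PLK1 (0.17), CDC20 (0.21), BUB1 (0.16) and BIRC5 (0.15). CDC20 went from 328 ± 11.01 FPKM on 1 kPa to 379 ± 20.3 on 40 kPa (SD, n = 3 each), without overlap, and AURKA from 72.3 ± 1.47 to 80.9 ± 1.83. Of the other genes always followed, CDK1 was 114 to 122 FPKM on 1 kPa and 117 to 123 on 40 kPa, and CCNB1 298 to 306 and 304 to 319 FPKM.

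In RAP2 tKO the calls were again CDCA8 (0.18, adjusted p = 0.013) and FOXM1 (0.19, adjusted p = 0.044), against 0.986% of genes higher and 2.88% lower (3.87% called), with 6 members at an unadjusted p below 0.05. CDCA8 was 49.3, 48.2 and 48.3 FPKM on 1 kPa and 54.5, 52.4 and 59.1 FPKM on 40 kPa. FOXM1 was 105, 103 and 102 FPKM on 1 kPa and 113, 111 and 129 FPKM on 40 kPa. The highest value of each gene was that of replicate 3 on 40 kPa, the library of deviating GC content. Without both such libraries CDCA8 (0.13, adjusted p = 0.010) stayed called, FOXM1 did not (0.12, adjusted p = 0.094), and TPX2 was the second call. Of all genes, 1.32% were then higher and 3.74% lower. Leaving out single libraries gave 0 to 3 calls: 0 without replicate 2 or 3 on 1 kPa, 1 without replicate 1 on 1 kPa or replicate 3 on 40 kPa, and 3 without replicate 1 on 40 kPa.

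In LATS dKO and YAP/TAZ dKO, limma called 0 of the 49 members between stiffnesses, against 0.708% of all genes in LATS dKO (0.0885% higher, 0.619% lower) and 0.347% in YAP/TAZ dKO (0.120% higher, 0.227% lower), with 3 and 1 members at an unadjusted p below 0.05. CDCA8 was 43.4, 43.8 and 42.7 FPKM on 1 kPa and 42.7, 43.6 and 44.3 FPKM on 40 kPa in LATS dKO. In YAP/TAZ dKO it was 51.05, 49.69 and 48.63 FPKM on 1 kPa and 49.998, 50.63 and 50.52 FPKM on 40 kPa. FOXM1 differed by 0.012 in LATS dKO and by -0.0067 in YAP/TAZ dKO. Soft and stiff libraries overlapped for both genes in both lines. Without both GC-deviating libraries, LATS dKO still had 0 calls and YAP/TAZ dKO had 1, CDC25B, which was lower on 40 kPa. Of all genes, 1.19% were then higher and 1.85% lower in LATS dKO, and 0.813% and 1.65% in YAP/TAZ dKO.

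The difference in stiffness response between each knockout line and WT was tested as an interaction. It called 0 of the 49 members for RAP2 tKO (0.0505% of all genes called, 0.0126% higher and 0.0379% lower, with 1 member at an unadjusted p below 0.05). It called 0 for LATS dKO (0.0632%, 0.0190% higher and 0.0442% lower, with 4 members) and 0 for YAP/TAZ dKO (0.392%, 0.259% higher and 0.133% lower, with 6 members). For CDCA8 the response was smaller than in WT by 0.20 in LATS dKO (SE 0.055, adjusted p = 0.18) and by 0.19 in YAP/TAZ dKO (SE 0.055, adjusted p = 0.19). For FOXM1 it was smaller by 0.21 (SE 0.070, adjusted p = 0.28) and 0.23 (SE 0.070, adjusted p = 0.23). Without both GC-deviating libraries, the interaction called CDCA8 for LATS dKO (adjusted p = 0.025) and, for YAP/TAZ dKO, CDCA8 (adjusted p = 0.0072), FOXM1 (0.023), BUB1 (0.041), CDC25B (0.042) and PLK1 (0.049). The response of each was lower than in WT. Of all genes, 0.851% were lower and 0.489% higher for LATS dKO, and 1.25% and 1.37% for YAP/TAZ dKO. With those libraries kept, other alternatives called 0 to 2 members for YAP/TAZ dKO.

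Over the mean of the 4 genotypes, CDCA8 (0.10), FOXM1 (0.10) and CDCA3 (0.10, adjusted p = 0.046) were higher on 40 kPa and BUB3 was lower (-0.074, adjusted p = 0.016), against 2.33% of genes higher and 7.20% lower (9.53% called). BUB3 was 226 ± 1.89 FPKM on 1 kPa and 216 ± 3.63 on 40 kPa in WT, and its difference in LATS dKO was -0.12, not called. Without both GC-deviating libraries 4 members were higher and 5 lower, against 3.78% and 11.4% of all genes. All 4 calls were among those members. With all libraries kept, the 11 members called in none of the 11 comparisons were CDK1, PLK1, AURKB, TTK, MAD2L1, TOP2A, CENPE, CENPF, NUF2, ASPM and NEK2. The other 38 were called in at least 1, and FOXM1 in 5, the most of any member.

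Across libraries the members varied together in part: 66.7% of the 1176 pairs had a correlation above 0. Over all pairs, the median Pearson correlation of log2(FPKM + 1) was 0.30 across the 24 libraries and 0.57 once group means were removed, a description in which the points share depth, the GC pattern above and, in the first case, genotype. BUB3 ran opposite to the mean of the other 48 members, with a correlation of -0.80 over the 24 libraries, as did NUSAP1 (-0.55), PRC1 (-0.51), BIRC5 (-0.44) and CKAP2 (-0.41). KIF18A followed that mean most closely over the 24 libraries, with 0.94. Once group means were removed, NUSAP1 (0.76), PRC1 (0.79) and CKAP2 (0.88) ran with the other members. BUB3 was then at -0.11 and BIRC5 at -0.61, and ESPL1 (-0.83) and INCENP (-0.79) were lowest. These correlations were not computed for genes outside the members.

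Other genes of mitosis, from lists that hold none of the members, were read in the same way in YAP/TAZ dKO, where 27.0% of all tested genes fell and 23.6% rose. Of 32 further M-phase genes tested, 13 fell and 3 rose. FAM83D, a spindle protein, fell by 0.61 on the log2 scale (adjusted p = 2.6e-11, neighbours -0.22) and DEPDC1B by 0.72 (neighbours -0.58), while STMN1, the microtubule-destabilising protein stathmin, rose by 0.26. Of 31 kinetochore and centromere genes 11 fell and 7 rose, with ZW10 (-0.54) and CENPK (-0.65) lower and MIS12 (0.41) higher. Of 16 genes of the APC/C and its regulators 6 fell (ANAPC7 by 0.46, ANAPC13 by 0.51) and 1 rose (ANAPC11, 0.56). Of 18 cohesin and condensin genes 7 fell and 3 rose: SMC4, a condensin core subunit, went from 226 to 107 FPKM (difference -1.07, neighbours -0.63), NCAPG2 fell by 0.54 (neighbours -0.07), and the cohesin subunit RAD21 rose by 0.43.

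Regulators of entry and of the M-phase wave were mixed in YAP/TAZ dKO, where 27.0% of all tested genes fell and 23.6% rose. Of 12 further entry kinases and phosphatases 4 rose and 3 fell: ARPP19 (0.40) and ENSA (0.33), which restrain the phosphatase opposed to CDK1, rose, while BORA, an activator of Aurora A, (-0.64) and CHEK1 (-0.34) fell. Of 21 MuvB, B-MYB, NF-Y and E2F regulators 8 rose and 9 fell, with NFYA, a subunit of the CCAAT-binding factor NF-Y, higher by 0.76 (22.3 to 38.5 FPKM, adjusted p = 2.2e-12) and RB1 lower by 0.63. Of 15 abscission and contractile ring genes 8 rose, led by VPS4A (0.63) and CHMP2A (0.70), and 6 fell, led by TSG101 (-0.48) and DIAPH3 (-0.44). For comparison, of 38 genes of DNA replication and the G1/S transition 12 rose and 15 fell, with GINS2 (0.59) and GINS3 (0.41) higher and POLA2 (-0.66) and FEN1 (-0.46) lower. No test compared the lists with each other or with all genes. When both GC-deviating libraries were left out, the further M-phase genes gave 17 falls and 5 rises, the kinetochore list 11 and 8, the APC/C list 8 and 3, cohesin and condensin 7 and 5, and the entry list 3 and 7. The regulators then gave 9 falls and 9 rises, the abscission genes 6 and 9 and the replication genes 16 and 15. Of all genes, 31.4% fell and 30.1% rose in that fit.

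In LATS dKO, the further M-phase genes gave 4 rises and 9 falls of 32 (16.0% and 17.8% of all genes). Without both GC-deviating libraries they gave 6 and 12 (20.6% and 22.2% of all genes). PBK, a mitotic kinase, rose from 34.3 to 67.0 FPKM (difference 0.94, adjusted p = 1.8e-09, neighbours 0.11), and FAM64A fell by 0.54. Of the 21 MuvB, B-MYB, NF-Y and E2F regulators, 3 rose, among them E2F4 and NFYB, 5 fell and 13 were not called. The shares of all genes were 16.0% higher and 17.8% lower. Among the falls, MYBL2, which encodes B-MYB, fell by 0.37 and E2F1 by 0.39, with neighbours at -0.28 and -0.26. Without both GC-deviating libraries the regulators gave 4 rises and 5 falls. In RAP2 tKO 1 further M-phase gene rose, again PBK (0.44), and 2 fell, ARHGEF39 (-0.59) and MELK (-0.39), against 7.40% and 8.57% of all genes. Without both such libraries 8 rose and 6 fell, against 14.5% and 13.3% of all genes. Between stiffnesses in WT, limma called 0 of the 32 further M-phase genes (0.322% of all genes higher, 0.663% lower), and 3 had an unadjusted p below 0.05. With both such libraries left out 5 rose and 1 fell, against 2.34% and 4.08% of all genes.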

How the data were processed

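The submitters' processing notes name STAR 2.4.2a, Cufflinks 2.2.1 and the build hg19, and give neither strand setting nor annotation release. The authors deposited 1 table of FPKM per library, with a confidence interval per gene, per the file headers. Entries of 1 symbol were summed. Depth was estimated from the deposited intervals, an underestimate, since FPKM hold no counts.

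limma 3.58.1 (R 4.3.3) was fitted with a mean-variance trend to log2(FPKM + 1) over all 24 libraries with 1 mean per group (16 residual degrees of freedom), on the 15828 genes that reached an FPKM of 1 in 3 or more libraries. Folds on this scale understate changes of low genes. Tests were two-sided, and p-values were adjusted within each of 11 contrasts. Genotype contrasts average both stiffnesses. The script was tested on simulated data. Names given are, per contrast, up to 6 called members per direction, CDK1, CCNB1, PLK1, AURKA, AURKB, BUB1, CDC20, TOP2A, FOXM1 and MKI67, members never called, and up to 2 genes per direction of each other list, of which 1 is not reported here. Further members named with their values were chosen after these were seen. The members and lists were chosen with earlier results of these data known. Alternatives were another pseudocount, no filter, rescaling, fewer groups, a replicate block and left-out single libraries. GC correction and centring on the genes within 5 Mb were added after the data were seen. So was the fit without both GC-deviating libraries, which were picked from these same data.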

Additional observations from a re-analysis of the deposited data

How the results depend on the processing

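The number of members called was recomputed under each alternative. For stiffness in WT (2 called) it was 1 with the replicate block, 8 without both GC-deviating libraries, 0 with only the compared groups in the fit, 4 with GC correction and 1 with centring on neighbours. In RAP2 tKO (2 called) it was 1 with no filter, 1 with the replicate block and 0 with only the compared groups. In YAP/TAZ dKO (0 called) it was 1 without the GC-deviating libraries, and over the mean of 4 genotypes (4 called) it was 9 without them and 7 with GC correction. The interaction called 1 member for LATS dKO without those libraries. For YAP/TAZ dKO it called 1 with rescaled libraries, 5 without those libraries, 2 with only the compared groups and 2 with GC correction. RAP2 tKO against WT (5 called) gave 3 with no filter, 8 with rescaling, 17 without those libraries, 1 with only the compared groups and 13 with GC correction. LATS dKO against WT (22 called) gave 12 with centring. YAP/TAZ dKO against WT (29 called) gave 29 to 41 over these alternatives. The cause of these shifts was not tested.

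Leaving out single libraries gave 0 to 1 calls for stiffness in WT, 0 to 3 in RAP2 tKO, 0 to 0 in LATS dKO, in YAP/TAZ dKO and in each interaction, and 3 to 5 over the mean of genotypes. It gave 2 to 8 for RAP2 tKO, 17 to 22 for LATS dKO and 28 to 29 for YAP/TAZ dKO against WT. The count for RAP2 tKO was 8 without RAP2 tKO on 40 kPa replicate 1 or replicate 3 and 2 without WT on 1 kPa replicate 2. Among single-gene values called in either fit the sign reversed in 3 cases, and a further 122 of 2671 changed sign while called in neither, at a size of at most 0.179, such as CCNB1 (-0.043) and PLK1 (-0.0087) for stiffness in RAP2 tKO without the GC-deviating libraries. Of the 3, PTTG1 in RAP2 tKO was 0.0021 and FOXM1 in LATS dKO 0.10 with centring, and BUB1 in YAP/TAZ dKO was 0.068 with GC correction. Of the members named by the rule, 13 of 15 calls in YAP/TAZ dKO and 8 of 14 in LATS dKO held in every alternative run, as did CDCA8 and FOXM1 over the mean of genotypes. None of the 5 in RAP2 tKO and neither stiffness call in WT or in RAP2 tKO held in all. No pairing by replicate number was seen: of 28 pairs of groups, 0 had every same-number correlation over 0.1. The 84 correlations ran from -0.25 to 0.15. They rest on deviations from means of 3 libraries and cannot exclude a pairing.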
